A study of Mus musculus with 10 samples.

Results

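The Gimap genes encode GTPases of immunity-associated proteins and lie side by side in a single cluster on mouse chromosome 6. The 8 Gimap genes named in the deposited table (Gimap1, Gimap3, Gimap4, Gimap5, Gimap6, Gimap7, Gimap8 and Gimap9) are described here, out of 24470 gene entries. They were chosen on their values with the inhibitor GPI against vehicle in these same testes, so those values are given as a description, with no test.

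The samples were testes of C57BL/6 mouse embryos at E12.5. From each of 5 embryos (M1 to M5), 1 gonad with its mesonephros was cultured on an agar slab for 48 h with 75 µM of the inhibitor CP 316819 (GPI), which blocks the glycogen phosphorylases PYGB, PYGL and PYGM, and the contralateral one with the solvent DMSO (vehicle). After culture the mesonephros was dissected away, and RNA from all cells of the gonad was amplified and sequenced, which gave 5 vehicle and 5 GPI libraries. Depth was 10203679 to 15590223 counts with vehicle and 11025409 to 15635322 with the inhibitor. The Sertoli cell transcription factor Sox9, expected in a testis, stood at 99.9 ± 17.3 CPM (counts per library scaled to 1000000 counts, with TMM factors; mean ± SD, n = 5) in the vehicle testes and at 150.0 ± 19.0 in the GPI testes. The GPI library of M1 stood apart from the other GPI libraries, with a chi-square per degree of freedom of 21.7 to 27.8 against each of them, where the other GPI libraries had 7.48 to 11 among themselves, so sums over the cluster are also given without M1. Among the vehicle libraries, that of M2 differed most from the rest, at 13.01 to 21.2 against each, where the other vehicle libraries had 6.42 to 13.7 among themselves.

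GIMAP proteins share a GTP-binding domain of the AIG1 type, first known from a plant gene induced by infection, and several are anchored in membranes of the endoplasmic reticulum, lysosome, Golgi or mitochondria. They are best known from lymphocytes: without GIMAP5 or GIMAP1, mature T cells and B cells do not survive. Transcripts of the cluster have also been found in endothelial cells, which line blood vessels, and the fetal testis gains its own vessels at the stage studied here. A bulk library cannot say which cell a transcript came from.

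In mm10 coordinates (chromosome 6) the cluster runs over 123.6 kb from the start of Gimap8 to the end of Gimap3, and 0 other entries of the table lie inside it. The order along the chromosome is Gimap8, Gimap9, Gimap4, Gimap6, Gimap7, Gimap1, Gimap5 and Gimap3, with Gimap6 and Gimap3 on the minus strand and the others on the plus strand. Gene models were small: the joined exons measured 3700 bases in Gimap8 and between 1269 and 2145 bases in the others.

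The promoters of 4 of these genes are printed because they set Gimap4, Gimap5 and Gimap6, which fell, beside Gimap9, whose groups overlapped. Each window holds 250 bases before and 50 after the gene's start (RefSeq, GRCm38.p6), read 5′ to 3′ along the gene's strand. The windows are chr6:48684328-48684627 on the plus strand for Gimap4, chr6:48745947-48746246 on the plus strand for Gimap5, chr6:48708195-48708494 on the minus strand for Gimap6 and chr6:48675885-48676184 on the plus strand for Gimap9. Capitals mark GGAAGT, the core bound by ETS factors such as ERG and FLI1, and TGTGGT, the core bound by RUNX factors, on either strand.
Gimap4: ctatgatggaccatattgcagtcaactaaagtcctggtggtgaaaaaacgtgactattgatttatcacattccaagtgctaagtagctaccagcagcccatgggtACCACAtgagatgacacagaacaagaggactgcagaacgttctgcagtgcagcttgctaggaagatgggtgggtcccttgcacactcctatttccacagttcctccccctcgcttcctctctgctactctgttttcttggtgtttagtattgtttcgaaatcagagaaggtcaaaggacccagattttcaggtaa
Gimap5: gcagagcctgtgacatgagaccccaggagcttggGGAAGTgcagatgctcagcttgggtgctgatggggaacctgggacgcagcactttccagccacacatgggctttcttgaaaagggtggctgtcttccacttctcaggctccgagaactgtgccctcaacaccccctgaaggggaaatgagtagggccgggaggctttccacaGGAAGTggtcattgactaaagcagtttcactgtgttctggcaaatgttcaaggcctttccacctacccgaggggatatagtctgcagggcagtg
Gimap6: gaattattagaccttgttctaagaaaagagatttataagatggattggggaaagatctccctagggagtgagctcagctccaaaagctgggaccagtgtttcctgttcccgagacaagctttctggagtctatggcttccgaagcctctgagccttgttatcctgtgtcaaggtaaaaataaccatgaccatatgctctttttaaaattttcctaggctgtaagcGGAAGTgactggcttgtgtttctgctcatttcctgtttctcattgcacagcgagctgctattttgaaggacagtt
Gimap9: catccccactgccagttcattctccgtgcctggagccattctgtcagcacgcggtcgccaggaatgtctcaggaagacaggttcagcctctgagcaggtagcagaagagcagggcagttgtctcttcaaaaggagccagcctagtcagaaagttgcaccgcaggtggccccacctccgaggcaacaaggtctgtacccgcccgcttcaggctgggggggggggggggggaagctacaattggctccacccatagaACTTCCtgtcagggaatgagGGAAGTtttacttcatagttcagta

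All 8 members had a promoter window, and Gimap8 had 2 that overlap, for alternative starts. The letters GGAAGT were found in 4 of the 8 genes, and in 23.8% of 32851 mouse promoter windows of the same length. Gimap5 held this motif at positions -216 and -44 from the start, Gimap6 at -25, Gimap1 at 2 and Gimap9 at 6 and 26. Gimap9 had as many matches as Gimap5, and Gimap4 had 0. The part that this motif had in the Gimap values was not tested. The letters TGTGGT were found in 3 genes, Gimap4 (-145), Gimap7 (-79) and Gimap1 (-95), and in 16.8% of all windows. Of other cores searched on both strands, ACAAAG, bound by SOX factors, was found in 2 of the 8 genes (18.7% of all windows) and GATAAG, bound by GATA factors, in 0 (7.44% of all windows). A match is a stretch of letters and not a measured binding site.

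Levels are given as CPM, or, to compare genes with each other, as CPM per kb of exon. In the vehicle testes the order per kb was Gimap4 (14.8 ± 1.65, SD, n = 5), Gimap1 (12.46 ± 2.43), Gimap6 (9.43 ± 1.53), Gimap5 (3.49 ± 0.893), Gimap8 (2.67 ± 0.662) and Gimap9 (1.35 ± 0.561). Gimap4 was above Gimap1 in 4 of 5 embryos, and their ranges overlapped, as did those of Gimap1 and Gimap6. Between Gimap6, at 7.35 or more, and Gimap5, at 4.18 or less, the ranges did not overlap. Gimap5 and Gimap8 overlapped, and so did Gimap8 and Gimap9, although Gimap8 was the higher in each of the 5 embryos. Over the 13612 tested genes with a known exon length, the median was 6.11 CPM per kb. Gimap4 stood above 73.2% of these genes and Gimap9 above 17.1%, while the vascular cadherin Cdh5, at 57.4 ± 4.48, stood above 94.3%.

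Gimap3 (Entrez Gene 83408, 48764464 to 48770851) and Gimap7 (Entrez Gene 231932, 48718621 to 48724636) had 0 counts in each of the 10 libraries, as did 4183 entries (17.1%) of the table. A count of 0 allows up to 3 counts, or 0.1855 to 0.291 CPM depending on the library, for counting error alone. Gimap3, a close relative of Gimap5, shared 41 of its 2478 distinct 100-base stretches of transcript with Gimap5, and the other 6 members shared 0 with any member. GIMAP3 and GIMAP5 are both known to bind proteins of the BCL2 family, and GIMAP7 to form dimers through its GTPase domain.

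Gimap4 (Entrez Gene 107526, 48684578 to 48692062), whose product promotes the death of T cells, had the highest level per kb with vehicle. There it measured 26.5, 29.1, 22.4, 28.0 and 30.2 CPM in M1 to M5, and with GPI 3, 42, 4, 0 and 14 raw counts, or a mean of 0.917 ± 1.13 CPM (SD, n = 5) against 27.2 ± 3.02 (SD, n = 5). The lowest vehicle testis was thus far above the highest GPI testis, M2, at 2.76. Among the GPI testes, M2 held most of the counts and M4 had none. The fitted log2 fold change was -4.99 (standard error 0.42), a size that rests on few counts in the GPI testes. Without M2 it was -5.91, in a range of -5.91 to -4.65 over the alternatives that kept Gimap4.

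Gimap1 (Entrez Gene 16205, 48739047 to 48743795), needed for the development of T cells and B cells, measured 14.5, 15.6, 18.7, 21.3 and 22.9 CPM with vehicle in M1 to M5. With GPI it measured 1.91, 3.29, 1.78, 0.854 and 1.86. The groups did not overlap, and it kept the largest share of its vehicle mean of the 5 members whose groups were apart, 10.4%, with a log2 fold change of -3.26 (standard error 0.27). An antisense transcript in GENCODE M21, Gimap1os, overlaps Gimap1, and a longer transcript named Gm28053 spans Gimap7, Gimap1 and Gimap5. Exons of Gimap1os cover 201 of the 1493 exon bases of Gimap1, and those of Gm28053 cover 198 of Gimap1, 153 of 1953 of Gimap5 and 81 of 1269 of Gimap7. Neither has an entry in the table and reads were counted without strand, so within these stretches their reads cannot be told apart from those of the Gimap genes.

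Gimap5 (Entrez Gene 317757, 48746197 to 48754200), the member whose loss causes lymphopenia in rats and mice, measured 7.999, 8.04, 5.26, 8.17 and 4.58 CPM with vehicle. With GPI it had 1, 1, 5, 1 and 5 raw counts in M1 to M5, a mean of 0.214 ± 0.184 CPM (SD, n = 5). Every GPI testis was below every vehicle testis, at 3.14% of the vehicle mean, and the log2 fold change was -4.92 (standard error 0.48).

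Gimap6 (Entrez Gene 231931, 48701583 to 48708244), known to bind the autophagy protein GABARAPL2, measured 16.6, 11.7, 18.04, 14.8 and 13.98 CPM with vehicle. With GPI it measured 1.09, 1.45, 1.54, 0.427 and 1.15. It had the smallest standard error of the members (log2 fold change -3.72, standard error 0.25), and the groups did not overlap.

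Gimap8 (Entrez Gene 243374, 48647234 to 48660875), a long member with repeated GTPase domains, measured 9.17, 14.04, 7.52, 9.22 and 9.46 CPM with vehicle and had 1, 10, 21, 11 and 1 raw counts with GPI. Its GPI mean of 0.6795 ± 0.642 CPM (SD, n = 5) was 6.88% of the vehicle mean, 9.88 ± 2.45. Again the groups did not overlap (log2 fold change -3.93, standard error 0.45). The GPI testis with the most Gimap8 was M3, not M2 as for Gimap4. Without M3 the log2 fold change of Gimap8 was -4.60, in a range of -4.60 to -3.63 over the alternatives that kept it.

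Gimap9 (Entrez Gene 317758, 48676135 to 48678704) did not follow the others. With vehicle it measured 3.24, 1.36, 1.45, 1.62 and 1.67 CPM in M1 to M5, and with GPI 0.273, 1.65, 0.617, 0.598 and 2.56. It was lower with GPI in 3 embryos and higher in 2 (M2 and M5), so the groups overlapped. The log2 fold change of -0.85 had a standard error of 0.54, and it moved to -0.35 without M1, the embryo with the highest vehicle value, and to -1.17 without M2 and -1.32 without M5, the embryos that were higher with GPI. As a share of all Gimap counts, Gimap9 made up between 1.699% and 4.15% with vehicle but between 7.32% and 34.9% with GPI.

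**Figure D1:**
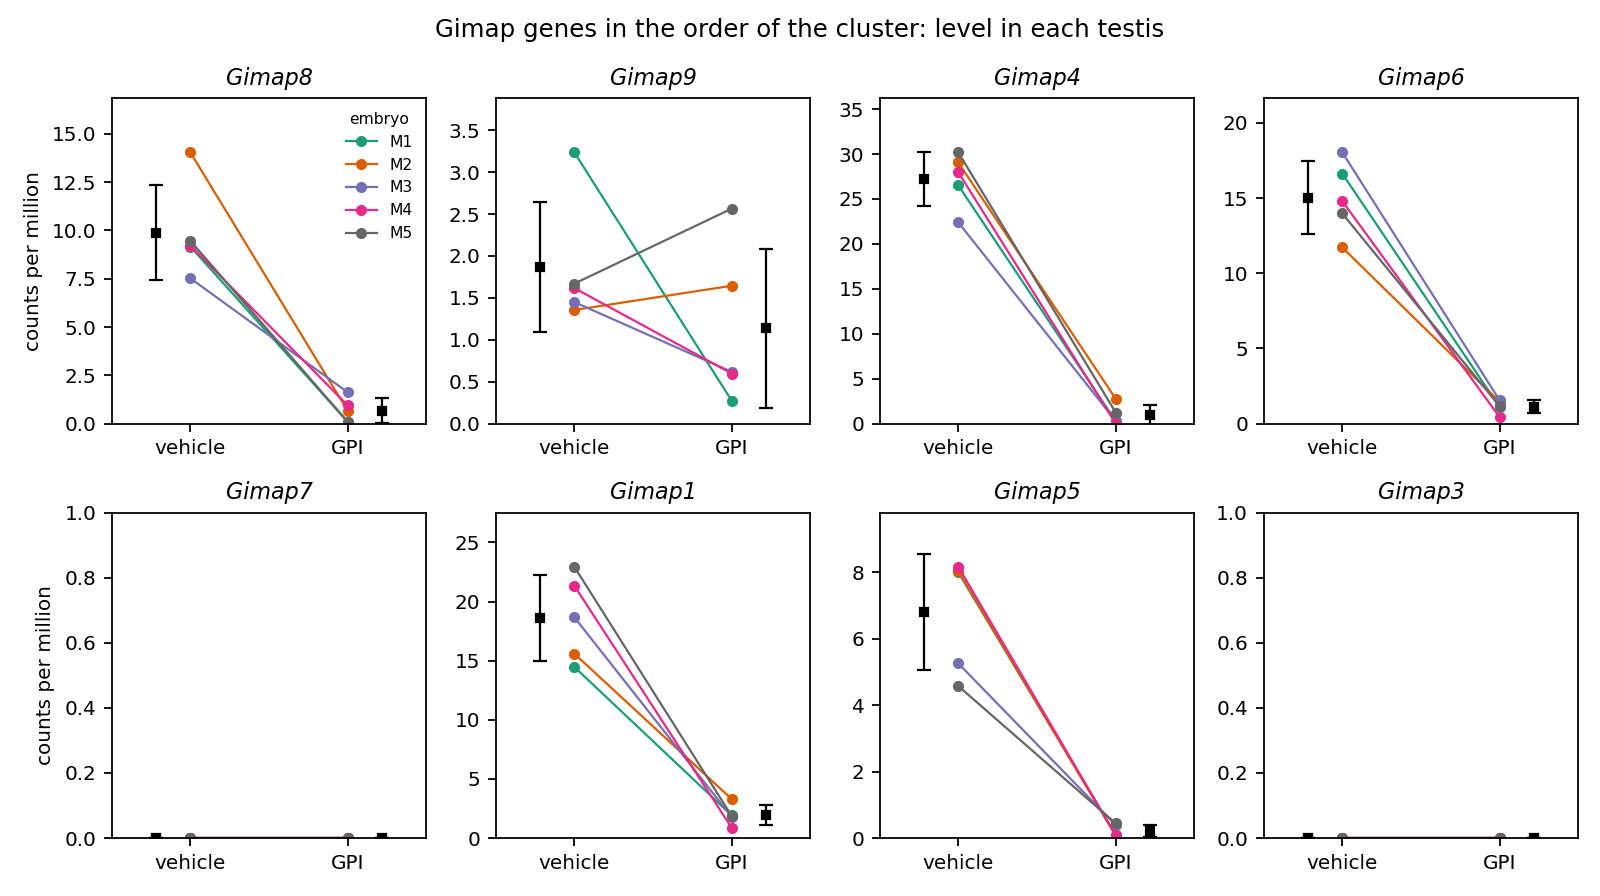
CPM (TMM-scaled, linear axis from 0) of each Gimap gene in the 5 vehicle and 5 GPI testes, in the order of the cluster; lines join the 2 gonads of an embryo and black squares with bars are the mean and SD (n = 5). In 5 genes the groups do not overlap, in Gimap9 they do, and Gimap7 and Gimap3 are at 0 throughout.

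The order of the members also differed between the treatments. In the GPI testes the means per kb of exon were 1.30 for Gimap1, 0.823 for Gimap9, 0.71 for Gimap6, 0.499 for Gimap4, 0.184 for Gimap8 and 0.11 for Gimap5, in CPM. Gimap4 was below Gimap1 in 5 of 5 GPI testes and below Gimap6 and Gimap9 in 4 of 5 each, with M2 the exception for both. Without M2 the mean of Gimap4 was 0.248, and without M5 that of Gimap9 was 0.566, under that of Gimap6 (0.707). All ranges with GPI overlapped except that Gimap1 lay above those of Gimap8 and Gimap5 and Gimap6 above that of Gimap5. No single testis led throughout. With GPI, the highest value was in M2 for Gimap4 and Gimap1, in M3 for Gimap6 and Gimap8 and in M5 for Gimap5 and Gimap9, while with vehicle it was in M5 for Gimap4 and Gimap1, M4 for Gimap5, M3 for Gimap6, M2 for Gimap8 and M1 for Gimap9. A GPI library held 34 to 150 Gimap counts in all and a vehicle library 809 to 1339, so counting error weighs more on the GPI side.

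Of the 8 members, 6 passed the low-count filter. In 5 of 8 every GPI testis was below every vehicle testis, which holds for 9.05% of the 13941 genes tested. Of all tested genes 11.9% were called lower and 11.1% higher. As the members were chosen on this contrast, and 2 of the 8 had 0 counts, nothing is read from this count. The median log2 fold change of the 6 that passed was -3.82, beside 0.02 over all tested genes.

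Summed over the cluster, the vehicle testes M1 to M5 held 78.0, 79.8, 73.3, 83.1 and 82.8 CPM. The GPI testes held 3.73, 9.87, 6.25, 2.90 and 7.34. The vehicle sums lay close together (79.4 ± 4.01, SD, n = 5), whereas the GPI sums differed by more than 3-fold between M4 and M2 (6.02 ± 2.81, SD, n = 5). Within an embryo, the GPI gonad had 4.77%, 12.4%, 8.53%, 3.49% and 8.865% of the sum of its vehicle partner, a median of 8.53%, and the median was 8.70% without M1 and 6.65% without M2. The makeup of the sum also differed. Of the Gimap counts, Gimap4 gave 30.5% to 36.45% in vehicle testes but 0% to 28% in GPI testes, while the share of Gimap6 was 19.1% ± 3.91 with vehicle and 19.8% ± 6.76 with GPI (SD, n = 5).

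To see whether the stretch of chromosome around the cluster moved with it, the 8 nearest entries on each side were examined. The first lies 13.55 kb before Gimap8 (AI854703) and 63.0 kb after Gimap3 (Tmem176b). Of these 16 entries, 8 passed the low-count filter, 5 had 0 counts in every library and 3 had too few counts to be tested. With edgeR's quasi-likelihood test, 0 of the 8 were called lower and 1 was called higher. At an unadjusted p under 0.05 a single one, Rarres2, was lower. DESeq2 and limma-voom also called 0 lower. Their median log2 fold change was 0.32.

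The nearest neighbours on the right, Tmem176b and Tmem176a, encode membrane proteins found in myeloid cells. Tmem176b measured 34.5 ± 2.61 CPM with vehicle and 36.1 ± 3.42 with GPI (SD, n = 5), a difference smaller than the spread between embryos (log2 fold change 0.07 with a standard error of 0.10, adjusted p = 0.712 in edgeR's quasi-likelihood test after Benjamini-Hochberg correction). Tmem176a had a log2 fold change of 0.52 (adjusted p = 0.0961, edgeR) and Gpnmb of 0.24 (adjusted p = 0.655, edgeR). On the left, the zinc finger genes Zfp775 (0.59) and Repin1 (0.41) and the repeat protein gene Lrrc61 (-0.20) were not called. Atp6v0e2, a subunit of the proton pump of acidic compartments, rose by 1.10 on the log2 scale (standard error 0.29, adjusted p = 0.0153, edgeR, higher in 5 of 5 embryos), though not past the threshold without M1, M3 or M4 (adjusted p = 0.0535, 0.0557 and 0.0729, edgeR, in a range of 0.00523 to 0.0729 over all alternatives). Rarres2, which encodes the attractant chemerin, stood at -1.30 on the log2 scale (SE 0.52, adjusted p = 0.0919, edgeR). Rarres2 passed the threshold without the replicate block (adjusted p = 0.0397, edgeR) or without M2 (adjusted p = 0.0216, edgeR), in a range of 0.0216 to 0.258 over all alternatives. The Gimap genes and these neighbours were not tested against each other.

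**Figure D2:**
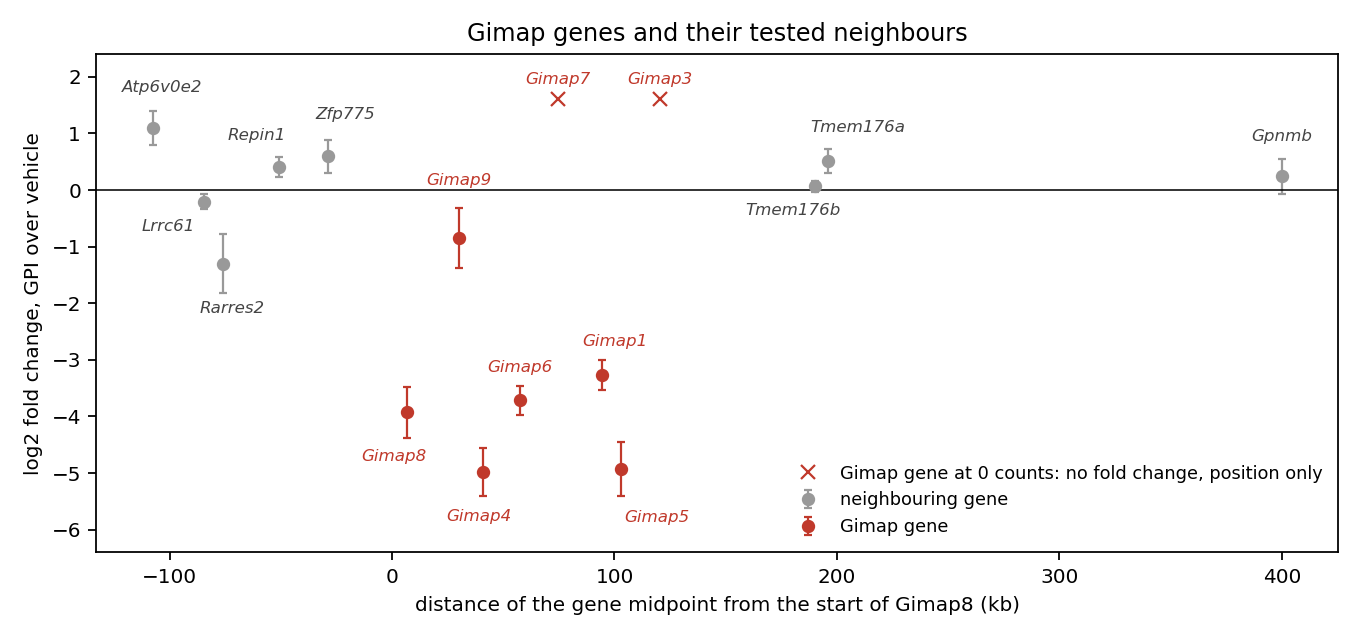
Log2 fold change of GPI over vehicle with its standard error (bars) for the Gimap genes (red) and the tested neighbours (grey), against the distance of each gene's midpoint from the start of Gimap8 in kb; crosses mark only the position of Gimap7 and Gimap3, which had 0 counts. The Gimap values run from -4.99 to -0.85 and those of the neighbours on both sides from -1.30 to 1.10.

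Lymphocytes are the cells that GIMAP proteins are best known from, and their marker genes had few counts here. Of 25 marker genes of T, B and NK cells, 7 had 0 counts in every library, beside 17.1% of all entries of the table. Among the 7 were the T cell receptor components Cd3e and Cd3g, the B cell regulator Pax5 and the NK cell receptor Ncr1. Others had a few counts, such as Cd3d (13 in the GPI testis of M1 alone), Cd4 and Cd8a. Summed, the 25 genes held 7.01, 3.29, 7.07, 5.42 and 4.33 CPM in the vehicle testes M1 to M5 and 6.54, 4.08, 2.93, 3.67 and 3.18 in the GPI testes. Only the kinase gene Lck, the most abundant of them, passed the low-count filter, and it was not called (log2 fold change -0.99, standard error 0.45, adjusted p = 0.135, edgeR). So 0 were called lower, with 1 of the 25 tested, and that 1 (Lck) had an unadjusted p under 0.05. While limma-voom called 0, DESeq2 called 1 lower, the NK cell receptor gene Klrb1c, and 1 B cell gene higher, as did edgeR without a low-count filter. Among 7 regulators of lymphoid cells, Ikzf3 was at 0, and Ikzf1, which acts in all blood lineages, fell from 6.61 ± 2.975 to 0.995 ± 0.624 CPM (SD, n = 5, log2 fold change -2.73, adjusted p = 0.00018, edgeR, lower in 5 of 5 embryos). Tcf7, Bcl11b and Gata3 had log2 fold changes of -0.38, -0.21 and 0.10 and were not called, and Tbx21 and Runx3 had too few counts. Of these, Tcf7 was lower in 5 of 5 embryos and was called without the replicate block (adjusted p = 0.0481, edgeR).

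Most endothelial genes were lower with GPI as well. Of 16 endothelial markers, all of which were tested, edgeR's quasi-likelihood test called 15 lower and 0 higher, with a median log2 fold change of -2.93. The exception was Lyve1, a marker of lymphatic vessels and some macrophages (-1.88, adjusted p = 0.0527, edgeR). Lyve1 was called lower without M3 (adjusted p = 0.019, edgeR, in a range of 0.0164 to 0.193 over all alternatives), with library totals only, with no low-count filter and with DESeq2, which called 16 of the 16. Summed, the 16 genes held 726, 771, 707, 802 and 728 CPM in the vehicle testes M1 to M5 and 97.9, 114, 80.1, 63.0 and 83.0 in the GPI testes, and Cdh5 was the most abundant. None of the 16 was at 0 in every library. In bulk samples, fewer cells of a type and less RNA per cell cannot be told apart. The part that a change in endothelial cells had in the Gimap values was not tested.

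Cdh5, the cadherin of endothelial junctions, fell from 229.5 ± 17.9 to 18.9 ± 5.14 CPM (SD, n = 5, log2 fold change -3.63, standard error 0.12, adjusted p = 3.76e-10, edgeR). Pecam1, another adhesion protein of these junctions, had a log2 fold change of -4.16, the VEGF receptor Kdr of -2.44 and the adhesion molecule Esam of -3.29, each lower in 5 of 5 embryos. Among 10 transcription factors of endothelium, 10 were called lower, with a median of -2.77. They included the ETS factors Erg (-3.23), Fli1 (-2.93) and Ets1 (-1.43), whose core motif was searched in the promoters above, and Sox7 (-2.35).

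Set against Cdh5 in the same library, the treatments overlapped for some Gimap genes and not for others. Gimap1 measured 6.74, 6.17, 8.91, 8.89 and 9.96 per 100 of Cdh5 in the vehicle testes M1 to M5, on the scale of CPM, and 11.05, 12.2, 11.2, 6.17 and 9.17 in the GPI testes, and the groups overlapped. Gimap6 also overlapped, with 4.64 to 8.61 per 100 of Cdh5 with vehicle and 3.09 to 9.71 with GPI. Gimap4 did not, with 10.7 to 13.1 with vehicle and 0 to 10.2 with GPI, and the highest GPI value was that of M2. Gimap9 did not overlap either, but in the other direction, with 0.536 to 1.51 with vehicle and 1.58 to 12.7 with GPI. That gap was narrow, as the lowest GPI value, that of M1, rested on 3 counts of Gimap9. Gimap5 (1.99 to 3.73 with vehicle, 0.243 to 2.43 with GPI) and Gimap8 (3.59 to 5.56 and 0.437 to 10.2) overlapped. All 8 Gimap genes together measured 10.35 to 11.4 per 100 of the 16 endothelial markers in the vehicle testes and 3.80, 8.67, 7.80, 4.61 and 8.85 in the GPI testes M1 to M5. These ratios were chosen after the values were seen and are a description.

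Of 20 macrophage and pan-leukocyte genes, 17 were tested, and edgeR called 14 lower and 0 higher and did not call 3, with a median log2 fold change of -1.85. Their sum was 140, 96.9, 113, 105 and 117 CPM in the vehicle testes M1 to M5 and 55.9, 51.1, 49.0, 26.6 and 34.2 in the GPI testes, and Arhgdib was the most abundant. The share of the vehicle sum that was left, a median of 40% within an embryo, stood beside 1.52% for neutrophil genes (0% to 21.8%, and a median of 2.37% without M1 or without M4), 11.4% for the endothelial markers and 8.53% for the Gimap genes, and the lists were not tested against each other. Ptprc, the pan-leukocyte phosphatase CD45, had a log2 fold change of -1.85 (adjusted p = 0.000145, edgeR), the adaptor Tyrobp of -1.41, the lysosomal protein gene Cd68 of -0.76 and the complement gene C1qb of -1.91. Cd68 was not called without the replicate block (adjusted p = 0.0571, edgeR). Leaving out each mouse in turn, 12 to 15 of the macrophage and pan-leukocyte genes were called lower. The macrophage marker Adgre1 was not called (-0.26, adjusted p = 0.512, edgeR).

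Of 7 neutrophil genes, 4 were tested and 4 were called lower, with S100a9 the most abundant (26.7 ± 17.7 CPM with vehicle, 1.33 ± 1.56 with GPI, SD, n = 5, log2 fold change -4.42, adjusted p = 2.7e-06, edgeR). The 7 genes summed to 46.8, 62.2, 79.2, 17.9 and 134 CPM in the vehicle testes M1 to M5 and 0.363, 13.6, 2.55, 0 and 2.03 in the GPI testes. The GPI testis with the highest sum was M2, which also had the most Gimap4, the most Gimap1 and the highest Gimap and endothelial sums with GPI, and the lowest in each of these was M4. Across the vehicle testes, neutrophil sums differed by more than 7-fold and the Gimap sums lay between 73.3 and 83.1. The part that white blood cells had in the Gimap values was not tested.

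**Figure D3:**
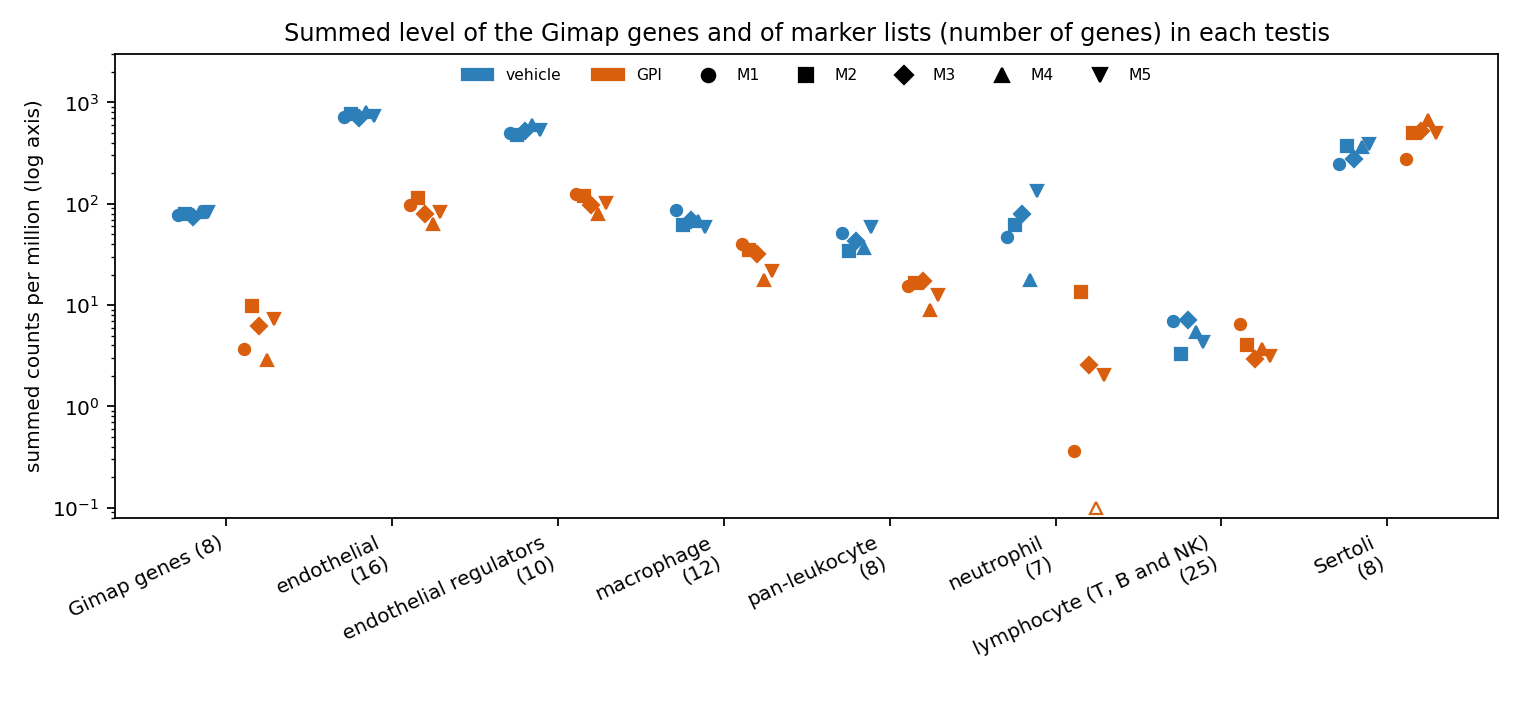
Summed CPM (log axis) of the 8 Gimap genes and of marker lists (number of genes in brackets) in each testis, vehicle in blue and GPI in orange, with 1 marker shape per embryo; the open triangle stands for a sum of 0, drawn at the lower edge. The Gimap sums lie between 73.3 and 83.1 with vehicle and between 2.90 and 9.87 with GPI, while the lymphocyte sums stay under 10 in both.

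Other cell types were followed in the same way. Of 8 Sertoli cell genes, 0 were called lower and 5 higher, with a median of 0.54. However, 3 were called higher without M3 or without the replicate block, and 4 without M2, M4 or M5 or with library totals only. The regulator gene Dmrt1 lost its call in each of these, with an adjusted p (edgeR) of 0.102 without M2, 0.114 without M3, 0.186 without M4 and 0.107 without M5, in a range of 0.00397 to 0.186 over all alternatives, and Aard lost it without M3 (adjusted p = 0.0502, edgeR, in a range of 9.43e-05 to 0.0929 over all alternatives) or the block. Of 7 germ cell genes, 6 were tested and 5 were called lower (median -3.94), led by Dppa3 at -5.20, while Kit, which other cells express too, was not called (-0.16). Of 8 erythroid genes 6 were called lower (median -1.38), and of 8 megakaryocyte genes 4 were tested and 2 called lower, Pf4 (-2.66) and Itgb3 (-0.50). Without M4 or M5, Itgb3 was not called (adjusted p = 0.089 and 0.0523, edgeR, in a range of 0.00688 to 0.089 over all alternatives), which left 1 of the 4 tested.

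The genes whose profile over the 10 libraries was nearest to that of the summed Gimap genes were ranked by the mean absolute difference of centred log2 CPM, over the 12917 genes that averaged 20 counts or more. The first 10 were Adgrf5 (0.20), Cd34 (0.21), Cdh5 (0.23), Adgrl4 (0.24), Notch4 (0.25), Bcl6b (0.25), Arhgef15 (0.27), Ptprb (0.30), S100a16 (0.30) and Pecam1 (0.31), where the median gene had a difference of 1.92. Of these, 3 are in the list of 16 endothelial markers, 0 in the lists of macrophage or pan-leukocyte genes and 0 lie on chromosome 6. Several of the others are also known from vessels: Cd34 encodes a sialomucin of endothelial and blood progenitor cells, Notch4 the Notch receptor of endothelium, and Adgrl4 and Adgrf5 adhesion receptors coupled to G proteins. The 10 genes had log2 fold changes from -4.16 to -3.44. Their levels differed widely, from 250.6 ± 41.4 CPM in Adgrf5 to 7.88 ± 1.41 in Arhgef15 with vehicle (SD, n = 5). Ikzf1 had rank 88, the germ cell gene Ddx4 rank 130, the neutrophil gene S100a9 rank 184 and Ptprc rank 247. The T, B and NK cell markers could not be ranked, as even Lck, the most abundant, averaged under 20 counts. Some macrophage and pan-leukocyte genes, such as C1qa, were also under this limit. As the profile is dominated by the contrast on which the members were chosen, the ranking is a description.

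**Figure D4:**
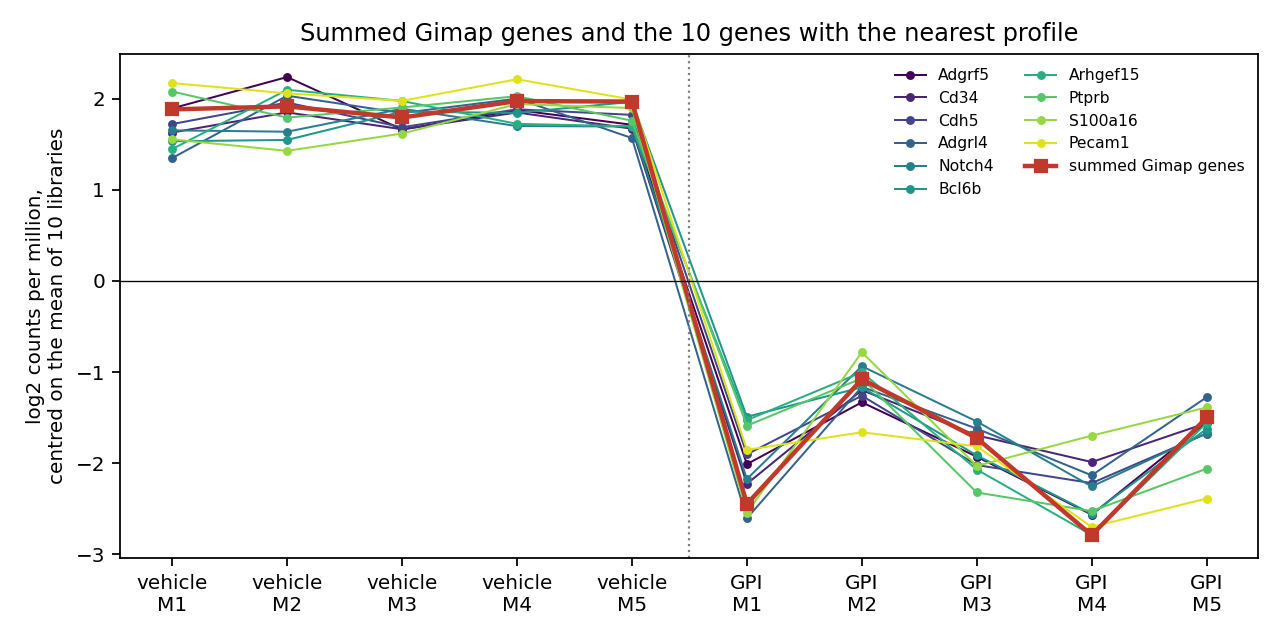
Log2 CPM, centred on each gene's mean over the 10 libraries, of the summed Gimap genes (thick red line) and of the 10 genes with the nearest profile; the dotted line parts the 5 vehicle from the 5 GPI libraries. The summed Gimap genes range from 1.79 to 1.97 with vehicle and from -2.79 (M4) to -1.08 (M2) with GPI.

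Genes for proteins that GIMAP proteins are known to act with were examined next. Of 12 partner genes tested, from the GABARAP and LC3 families of autophagy, the BCL2 family of cell death regulators and the kinase GSK3B, edgeR called 2 lower and 0 higher, and their median log2 fold change was -0.05. Gabarapl2, the partner of GIMAP6, measured 6.27 ± 1.69 CPM with vehicle and 6.53 ± 1.46 with GPI (SD, n = 5, log2 fold change 0.07, adjusted p = 0.876, edgeR). Gsk3b, known to act with GIMAP5, had a log2 fold change of -0.01 (adjusted p = 0.93, edgeR), Gabarap of 0.06, Map1lc3b of -0.14 and Bcl2l11 of -0.21, and none of these was called, although Bcl2l11 was without M2 (adjusted p = 0.0389, edgeR, in a range of 0.0389 to 0.465 over all alternatives). The 2 called, named after their values were seen, were the survival gene Bcl2 (-0.56, adjusted p = 0.000629, edgeR, lower in 5 of 5 embryos) and the death effector Bak1 (-0.58, adjusted p = 0.00466, edgeR, lower in 5 of 5 embryos).

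Other GTPases of immunity, which are induced by interferon and lie outside the cluster, were compared as a further family. Of 13, 9 were tested, 4 were called lower and 0 higher, with a median log2 fold change of -0.56. The guanylate-binding protein gene Gbp9 fell from 11.4 ± 3.19 to 2.67 ± 1.203 CPM (SD, n = 5, log2 fold change -2.11, adjusted p = 0.000191, edgeR) and Iigp1, named after its values were seen, by 2.08 on the log2 scale. Gbp7 (-0.62) and Gbp2 (-1.13) passed the threshold narrowly (adjusted p = 0.0293 and 0.0444, edgeR), and neither did without M2, M4 or M5, which left 2 of the 9 tested called. Gbp2 also lost its call without M3 (adjusted p = 0.0671, edgeR, in a range of 0.0204 to 0.142 over all alternatives). Irgm1 was not called (-0.56, adjusted p = 0.168, edgeR). Of 10 small GTPases and GTPase-binding proteins of endothelium and leukocytes, 9 were tested and 5 called lower, with a median of -0.39. The largest falls, named after their values were seen, were those of Rasip1 (-2.335, adjusted p = 1.07e-06, edgeR) and Rhoj (-1.545, adjusted p = 5.16e-06, edgeR). Both were lower in 5 of 5 embryos. Without M3 or M4, 4 were called, as Rras lost its call (adjusted p = 0.0599 and 0.0634, edgeR, in a range of 0.00211 to 0.0634 over all alternatives). The most abundant per kb, Rac1, fell by 0.39 on the log2 scale (adjusted p = 0.000585, edgeR) and Rhoa by 0.35 (adjusted p = 0.00285, edgeR), and Rap1b (-0.20) and Cdc42 (-0.09) were not called, although Rap1b was without M2 (adjusted p = 0.014, edgeR, in a range of 0.014 to 0.183 over all alternatives) and with library totals only.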

How the data were processed

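RNA of 10 cultured testes was amplified (Ovation RNA-Seq V2) and sequenced as unstranded read pairs. The authors mapped them to mm10 with STAR 2.5, per the submitters' processing notes, counted them on NCBI RefSeq genes with featureCounts (Subread 1.5.0-p1) and deposited raw counts, used here as deposited.

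Of 24470 entries, 13941 passed edgeR's filterByExpr (minimum count 10, minimum total 15) and were tested by edgeR's quasi-likelihood test with embryo and treatment in the design, TMM scaling and Benjamini-Hochberg adjustment at an FDR of 0.05. CPM divide by the TMM-scaled total of these genes. Each standard error was derived from edgeR's F statistic, as the size of the fitted change over the root of F. The procedure was tested on simulated data. Gonads were paired because the labels give both the same mouse number. Deviations from the treatment mean correlated at 0.06 on average within a mouse and -0.01 between mice. Exon lengths came from GENCODE M21. Counting intervals cover counting error only, since amplified reads are not independent molecules.

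Named one by one were the members, tested neighbours, the 10 nearest profiles and, per list, up to 4 genes highest per kb, or any gene in lists of up to 8. Lyve1, Adgre1 and Rras were added as exceptions after their values were seen, and Rasip1 and Rhoj for their large changes. Gabarapl2 was added for its link to GIMAP6, and Cd3d, Cd3e, Cd3g, Cd4 and Cd8a as defining markers. The members and lists were chosen with earlier results of these data known. Alternatives were DESeq2, limma-voom, other scalings and filters, no replicate block, and each mouse left out. Summing Gimap3 with Gimap5, also planned, could change no value, as Gimap3 had 0 counts. The fits used edgeR 4.0.16, DESeq2 1.42.0 and limma 3.58.1 under R 4.3.3, and the rest pandas 2.3.3, matplotlib 3.10.9 and numpy 2.4.6 under Python 3.11.15.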

Additional observations from a re-analysis of the deposited data

Results flagged for a closer look

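Of 29 groups of 5 testes examined for a value far from the other 4, 2 held one, where chance alone marks about 1 in 20 groups. Gimap9 with vehicle was 3.24 CPM in M1, against 1.36 to 1.67 in the other 4 embryos. The summed neutrophil genes with GPI were 13.6 CPM in M2, against 0 to 2.55 in the other 4.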

How the results depend on the processing

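Gimap1, Gimap4, Gimap5, Gimap6 and Gimap8 were lower with GPI in every alternative that kept them, with log2 fold changes of -3.59 to -3.01, -5.91 to -4.65, -5.45 to -4.58, -3.92 to -3.49 and -4.60 to -3.63, and Gimap9 had -1.32 to -0.35. With at least 10 counts in every library, a filter that removes genes that fall to few counts, 1 member was kept (Gimap1). Called lower were 8 of 10 tested macrophage and pan-leukocyte genes, 2 of 4 interferon-inducible GTPases and 1 of 2 germ cell genes. Under the same filter, 12 of 12 tested endothelial markers and 3 of 4 tested erythroid genes were called lower. It kept 0 neutrophil genes, and 0 of 3 tested lymphoid regulators were called. Without the replicate block that pairs gonads, 1 neighbour was called lower (Rarres2) and 3108 genes were called in all in place of 3198. With DESeq2, and with no low-count filter, 1 lymphocyte gene was called lower and 1 higher. Leaving out each mouse in turn gave 0 to 1 neighbours and 2 to 4 interferon-inducible GTPases called lower. Of the other genes named one by one, Cd68, Itgb3, Aard and Dmrt1 were not called without the replicate block (adjusted p = 0.0571, 0.0635, 0.0929 and 0.0976, edgeR), nor was Gbp2 (0.142), whereas Tcf7 was called without the block (0.0481). Lyve1 was called in 4 alternatives (DESeq2, library totals only, no low-count filter, without M3), Rap1b in 2 (library totals only, without M2) and Bcl2l11 in 1 (without M2), and Dmrt1 lost its call in 6 and Gbp2 in 6, limma-voom among those of Gbp2. The cause of these differences was not tested. Leaving out each mouse in turn, the median log2 fold change of the members ran from -4.20 to -3.67 and the summed Gimap level from 6.65% to 8.70% of vehicle. With the 2 other scalings the sum ran from 7.95% to 8.485%, and it was computed under no other alternative.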
